A study of Mus musculus with 8 samples.

Results

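The change of NK cell RNA on loss of the *Ccl5* proximal enhancer was compared between lung and spleen. All 8 of the 8 libraries of the series were used, with 2 libraries in each of 4 groups. The quantity examined was the genotype by organ interaction, which is the log2 change from WT to KO in lung minus the same log2 change in spleen, and the genes of most interest were those that rose in one organ and fell in the other. The cells were sorted as CD45+ TCRb- NK1.1+ from lung or spleen of C57/Bl6 mice that were either WT or Ccl5 ΔPE/ΔPE (KO). The KO mice carry a CRISPR deletion of the enhancer *Ccl5-PE* in the germline, so it is present in every cell of the animal and not only in NK cells. The study's methods give the mice used as both sexes over a range of ages, without naming them for each library, and nothing in the labels ties a library to one mouse or another. Values below are over libraries, and p-values measure the spread between these libraries, which may be technical.

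NK cells are innate lymphocytes that kill infected and transformed cells through perforin and granzymes, under the control of activating and inhibitory receptors, and in mice they are found both in the circulation and in organs such as lung and spleen. They make the chemokine CCL5 at rest. Stimulation of lymphocytes brings a fast wave of immediate early genes (AP-1 factors, NR4A receptors and phosphatases), followed by cytokine feedback regulators and glycolytic enzymes, while oxidative phosphorylation supplies most of the ATP of resting cells.

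Between 3132963 and 26482366 reads were counted on genes in a library, and 12595 of the 48321 gene symbols passed the filter on low counts. The levels of *Ccl5* were 19518 and 18349.6 CPM in WT lung against 2992 and 3195 in KO lung, with 16679 and 15664 in WT spleen against 2676 and 2432 in KO spleen, where CPM are counts scaled to a common library total with the trimmed mean of M values (TMM). *Ccl5* was low in all 4 KO libraries, as the labels give them. Its log2 change was -2.61 ± 0.042 (SE) in lung and -2.67 ± 0.043 in spleen. The interaction was 0.05 ± 0.057 (adjusted p = 0.416, quasi-likelihood test of edgeR, Benjamini-Hochberg), but it was -0.30 and passed the test when each library's trend with GC content was removed. All 12 defining NK cell markers were detected in every library. Their summed level lay between 52512 and 54144 CPM in WT lung, 42029 and 42498 in KO lung, 38711 and 39452 in WT spleen, and 50115 and 52613 in KO spleen, so that it moved with the interaction. Of the 12, 2 had a called interaction above 0 and 8 below 0. Lung epithelial markers summed to 258 to 262 CPM in lung WT and 369 to 406 in lung KO, with *Sftpc* the highest, and were under 1 CPM in spleen, with no interaction call among the 6 of 10 that were tested. The B cell markers were lower in lung KO than in lung WT (267 to 273 against 300.1 to 312 CPM) and higher in spleen KO than in spleen WT (704 to 723 against 598 to 609), although 5 of the 10 tested had a called interaction above 0 and 1 below 0. The sum of the T cell markers moved likewise (684 to 700 against 844 to 873 CPM in lung, 1187 to 1237 against 1045 to 1048 in spleen), with 1 of the 9 tested above 0 and 5 below 0. The CD3 chains, named after their values were seen, did not all follow this sum in spleen. *Cd3e* was at 32.0 and 32.5 CPM in WT spleen against 7.51 and 11.1 in KO spleen, and *Cd3g* at 61.4 and 60.9 against 57.5 and 55.3. *Cd3d* went with the sum, at 59.2 and 62.3 against 72.1 and 64.4. Macrophage, monocyte and dendritic cell markers summed to 39.7 to 44.5 CPM in lung and 21.5 to 28.7 in spleen, with *Adgre1*, *Flt3* and *Fcgr1* at 0, and 1 of the 5 tested had a called interaction, below 0. Platelet and erythroid markers summed to 55.4 to 60.0 CPM in lung and 2.0 to 2.99 in spleen, with *Gp9* at 0, and 2 of the 6 tested had a called interaction, both below 0. These were the platelet chemokines, named here after their values were seen, *Ppbp*, at 21.1 and 20.2 CPM in WT lung against 4.71 and 6.12 in KO lung, with 0.250 and 0.117 in WT spleen against 1.63 and 1.61 in KO spleen, and *Pf4*, at 8.58 and 8.29 CPM in WT lung against 1.23 and 0.544 in KO lung, with 0.500 and 0.701 in WT spleen against 0.326 and 0.575 in KO spleen. Haemoglobin transcripts of the same list, also named after their values were seen, were higher in KO lung, without a called interaction. *Hbb-bs* was at 13.2 and 16.6 CPM in WT lung against 28.7 and 31.7 in KO lung. *Hba-a1* was at 5.59 and 6.99 against 8.19 and 11.7, and *Hba-a2* at 2.61 and 2.33 against 7.57 and 6.94. *Hbb-bt* overlapped, at 3.36 and 1.81 against 4.50 and 2.18. The part of these marker levels in the results was not tested. In bulk RNA, fewer cells of a type and less RNA per cell cannot be told apart.

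The genotype effect differed between the organs for 7753 of the 12595 genes tested (61.6%) at an adjusted p of 0.05. It was higher in lung for 4099 genes (32.5%) and lower in lung for 3654 (29.0%). Of the genes that changed in both organs (4367), only 965 changed in the same direction. The others split into 1790 genes (14.2% of those tested) that rose in lung and fell in spleen, and 1612 (12.8%) that fell in lung and rose in spleen. The median change of the first class was 0.62 in lung and -0.59 in spleen, and that of the second was -0.42 and 0.39. Both changes were at least 1.5-fold for 680 genes of the first class (5.40% of those tested) and 240 of the second (1.91%). The 2 KO libraries lay outside the 2 WT libraries in both organs for 1744 of the 1790 genes and 1565 of the 1612. These genes had been chosen by tests in both organs, so such separation largely follows from the choice. The share over all genes tested is not given here. A further 4100 genes had an interaction without a change past the test in both organs. Replicates were close, with a common biological coefficient of variation of 2.50%, and the counts depend on this small spread. An assumed coefficient of 0.2 left 203 and 46 genes in the opposite classes, and DESeq2 left 949 and 932. The split between the opposite classes depended on the scaling. The first class was 52.6% of the opposite genes here, 42.5% after removal of the GC trends and 67.7% with library totals alone. The log2 changes moved with it, since the median interaction over all genes was 0.03 here and 0.19 with library totals.

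**Figure D1:**
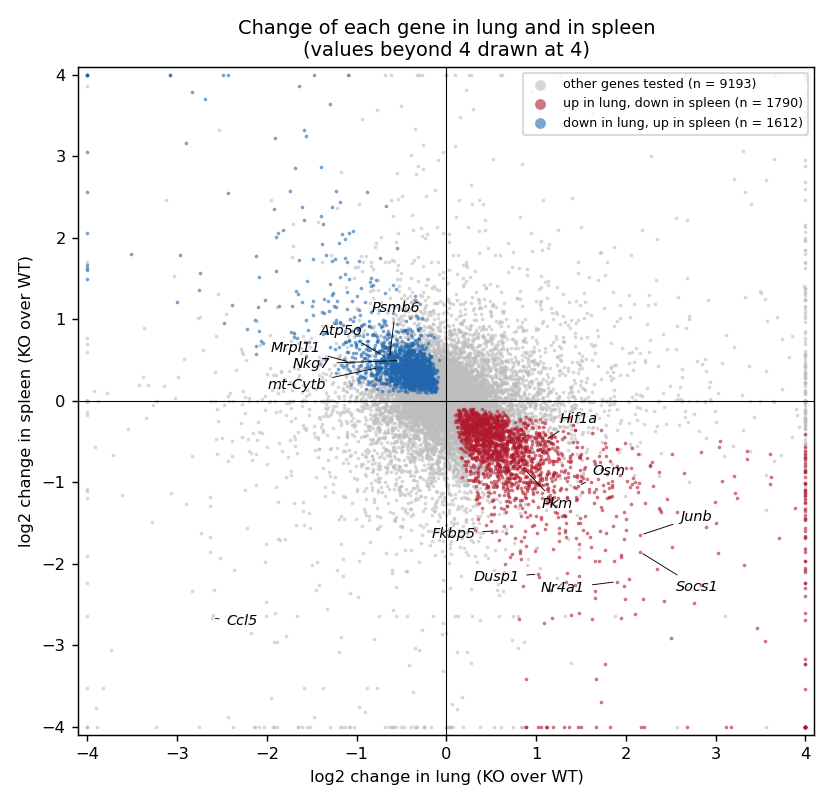
Each dot is 1 of the 12595 genes tested, at its log2 change from WT to KO in lung (x axis) and in spleen (y axis). The 1790 genes that rose in lung and fell in spleen fill the lower right, the 1612 that fell in lung and rose in spleen fill the upper left within a narrower range, and *Ccl5* stands at the lower left with a fall in both organs.

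The crossing can also be read from the order of the organs. This is the same contrast from the same group means, so it adds no separate evidence. Its overlap with the opposite classes is in part built in. In the same model, 1494 genes (11.9%) were lower in lung than in spleen in WT and higher in lung than in spleen in KO, and 1269 genes (10.1%) had the reverse order. These included 1164 of the 1790 genes that rose in lung and fell in spleen, which is 65.0%, and 984 of the 1612 that fell in lung and rose in spleen, which is 61.0%. Over the 5103 genes whose average log2 CPM exceeded 5, the closest groups were lung KO and spleen WT, which differ in both organ and genotype, with a median absolute log2 difference between group means of 0.16. The same median was 0.25 between WT and KO in lung, 0.25 between WT and KO in spleen, 0.24 between the organs in WT and 0.30 between them in KO. Replicates of a group differed by 0.060 to 0.072. Removal of the GC trends left lung KO and spleen WT as the closest groups, at 0.17. The labels give no batch, run or sort date, so a technical batch shared by lung KO and spleen WT, or by lung WT and spleen KO, cannot be told apart from the interaction.

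The GC content of transcripts moved with the interaction. The 5092 genes with a known GC content and an average log2 CPM above 5 were put into 4 equal bins by GC content. The median log2 deviation of the richest bin minus that of the poorest was -0.20 and -0.14 in WT lung against 0.11 and 0.16 in KO lung, with 0.20 and 0.11 in WT spleen against -0.10 and -0.14 in KO spleen. It crossed between the groups in the same way as the genes did. Across the 12501 genes with a known GC content the interaction had a Spearman correlation of 0.33 with it, a description over genes that share these 8 libraries. Genes that rose in lung and fell in spleen had a median GC content of 53.0%, against 45.5% for the opposite class and 48.8% for all genes tested. In the GC-poorest of 10 equal bins of genes 3.68% rose in lung and fell in spleen and 24.1% did the opposite, and in the GC-richest bin these shares were 27.3% and 3.20%. With an offset that removed each library's trend with GC content, 1324 genes rose in lung and fell in spleen and 1790 did the opposite. They held 1170 of the 1790 (65.4%) and 1284 of the 1612 (79.7%) genes of the original classes. Such an offset takes away every change that follows GC content, whatever its source, and values with it are therefore given beside the lists below as "GC offset". Where 2 counts of opposite genes are given with it, the first is of genes up in lung and down in spleen. The counts of every list are to be read against the shares of all genes tested. Without the offset, 32.5% had a higher and 29.0% a lower effect in lung. Of all genes, 14.2% rose in lung and fell in spleen, and 12.8% did the opposite.

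**Figure D2:**
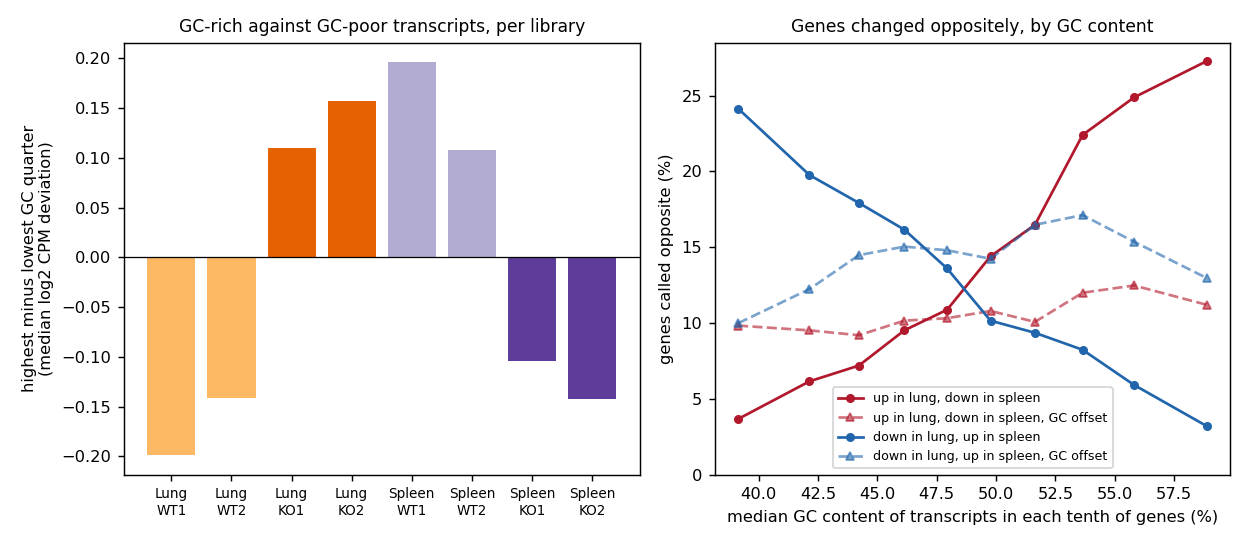
Left, bars give for each library the median log2 CPM deviation of the GC-richest of 4 equal bins of genes minus that of the GC-poorest, which is below 0 in lung WT and spleen KO and above 0 in lung KO and spleen WT. Right, points give the share of genes called opposite in each of 10 equal bins by GC content (x axis, median GC content in percent), from 3.68% to 27.3% for up in lung and down in spleen without the offset, and within 9.2% to 12.5% with it.

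Of all lists the AP-1 factors had the largest median interaction. Of 11 AP-1 factor genes tested, which encode the subunits of a dimeric transcription factor made on stimulation, 8 had a higher genotype effect in lung and 2 a lower one. 5 of them (45.5%, against 14.2% of all genes) rose in lung and fell in spleen and none did the opposite. The median changes of the list were 1.14 in lung and -0.81 in spleen, and its median interaction of 2.35 was 1.87 with the GC offset, which left 5 and 1 opposite genes. *Jun* was at 16.7 and 16.3 CPM in WT lung against 46.1 and 46.8 in KO lung, with 8.74 and 7.48 in WT spleen against 1.96 and 3.03 in KO spleen. It was highest in lung KO and lowest in spleen KO, and WT and KO did not overlap in either organ. Its log2 change was 1.49 ± 0.12 (SE) in lung and -1.44 ± 0.21 in spleen (adjusted p of the interaction = 4.75e-13, edgeR). *Mafk*, a small MAF protein that pairs with other basic leucine zipper factors, changed by 1.14 in lung and -0.71 in spleen. *Junb* (2.16 in lung and -1.65 in spleen) and *Jund* (1.69 in lung and -1.97 in spleen) moved further. The library kit does not mark strand, so reads of a gene and of one that overlaps it on the other strand cannot be told apart. Among the genes named here this concerns *Aars*, *Atp5o*, *Bhlhe40*, *Cd247*, *Cebpzos*, *Cx3cr1*, *Dusp1*, *Eomes*, *Hif1a*, *Irf7*, *Jun*, *Junb*, *Jund*, *Mafk*, *Mars*, *S1pr5*, *Sh2d1a*, *Tap2*, *Tapbp*, *Vps37b*, *Xcl1*, *Xrcc4*, *Zeb1*, *Zfp36*, *Znhit3* and *mt-Co1*. For changes given without an error, the SE was at most 0.21.

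Of 31 other immediate early genes tested, 24 had a higher genotype effect in lung and none a lower one, and 13 (41.9%) rose in lung and fell in spleen, again with none in the opposite class. The list's median interaction was 0.90, and 0.72 with the GC offset, which left 11 and 1 opposite genes. *Nr4a1*, an orphan nuclear receptor induced by receptor signalling, was at 43.9 and 55.2 CPM in WT lung against 169 and 186 in KO lung, with 13.5 and 14.1 in WT spleen against 1.63 and 3.14 in KO spleen. The WT organs already differed, and the KO libraries lay farther apart than the WT libraries did. Its changes were 1.90 ± 0.078 (SE) in lung and -2.22 ± 0.20 in spleen, and the interaction of 4.12 was 3.52 with the GC offset (adjusted p = 1.23e-18 without it). *Dusp1*, a phosphatase that switches off p38 and JNK kinases, was at 283 and 306 CPM in WT lung against 594 and 596 in KO lung, with 26.7 and 21.7 in WT spleen against 4.24 and 5.48 in KO spleen, and its level in spleen was far below that in lung in both genotypes. *Klf2*, a quiescence and trafficking factor, changed by 1.21 in lung and -1.37 in spleen, and *Ier2* by 0.66 in lung and -0.89 in spleen.

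Promoters of immediate early genes are shown because several carry the letters of elements through which such genes are known to be induced. The cAMP response element TGACGTCA and the CArG box were searched on both strands of the 250 bases before the start site in RefSeq sequences (GRCm38.p6). The cAMP response element was present in 9.68% of the 31 promoters matched to 23 genes of this list (3 promoters). It was in 1.55% of all 32851 promoters and 2.64% of those of genes tested. It was not particular to this list. It lay in 7.35% of the 68 promoters of oxidative phosphorylation genes and 8.33% of the 72 of cytosolic ribosomal protein genes. The CArG box was in 19.4% of the promoters of this list (6 promoters), 1.47% of all promoters and 1.15% of those of genes tested. Over all opposite genes the shares were 2.69% up in lung and 3.54% down in lung for the first motif and 1.12% and 1.13% for the second. Such a match describes the letters and is not a measured binding site. Below are *Dusp1* (chr17:26508552-26508671, minus strand) with the cAMP response element in capitals and *Zfp36* (chr7:28379229-28379348, minus strand) with the CArG box in capitals, each 5′ to 3′ on the strand of the gene and chosen after their values were seen, as the members with the smallest p that hold the motif. *Zfp36*, which encodes an mRNA decay factor, rose by 1.05 in lung and changed by -0.72 in spleen.
Dusp1: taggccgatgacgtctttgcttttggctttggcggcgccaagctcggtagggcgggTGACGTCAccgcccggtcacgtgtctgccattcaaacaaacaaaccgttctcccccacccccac
Zfp36: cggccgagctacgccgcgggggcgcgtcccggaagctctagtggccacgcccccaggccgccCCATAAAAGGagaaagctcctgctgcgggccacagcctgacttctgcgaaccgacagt

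**Figure D3:**
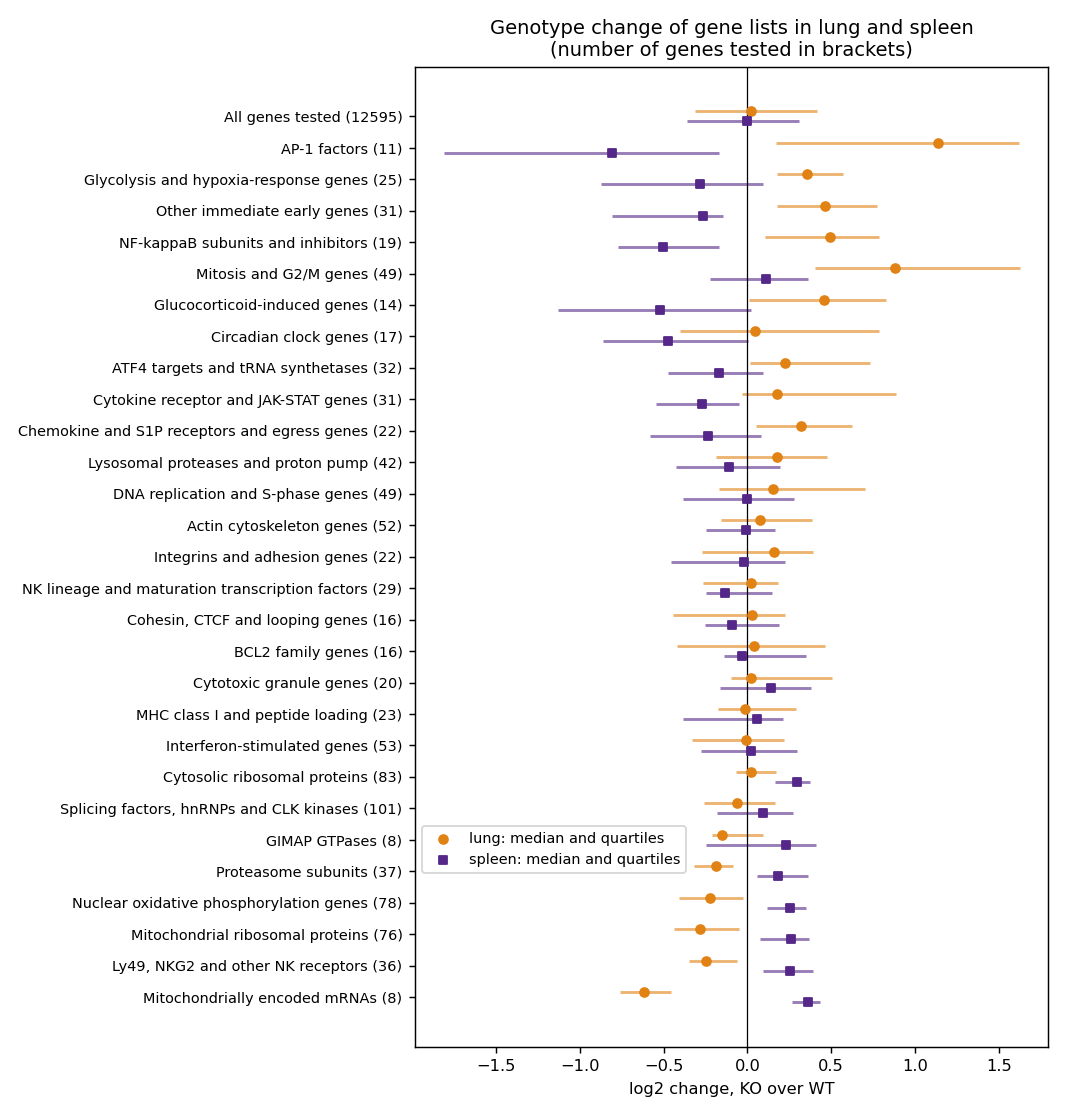
Dots and squares give the median log2 change from WT to KO of each gene list in lung and in spleen, and lines span its quartiles. AP-1, immediate early, NF-kappaB, glycolysis and glucocorticoid lists lie above 0 in lung and below 0 in spleen, oxidative phosphorylation, mitochondrial ribosome, proteasome and NK receptor lists lie the other way, and all genes together have a median of 0.02 in lung and 0 in spleen.

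NF-kappaB genes, which encode the subunits of this factor and the inhibitors that end its action, were called in 1 opposite class alone. Of 19 tested, 16 had a higher effect in lung and 1 a lower one, and 10 (52.6%) rose in lung and fell in spleen. The list's medians were 0.49 in lung and -0.50 in spleen, and its median interaction was 0.77, or 0.71 with the GC offset, which left 6 and 0 opposite genes. *Rela*, the p65 subunit, was at 37.0 and 40.7 CPM in WT lung against 74.7 and 78.0 in KO lung, with 67.7 and 75.5 in WT spleen against 36.2 and 40.5 in KO spleen. Lung KO stood near spleen WT and spleen KO near lung WT. Its changes were 1.0 ± 0.087 (SE) and -0.87 ± 0.075 (adjusted p = 1.02e-16). Among the inhibitors, *Tnfaip3* (A20) changed by 0.60 in lung and -0.80 in spleen and *Nfkbia* (IκBα) by 0.56 in lung and -0.21 in spleen. The kinase gene *Ikbkb* changed by 0.25 in lung and -0.60 in spleen. A motif of the NF-kappaB type lay in 30.4% of the 23 promoters matched to 15 of these genes and in 5.0% of all promoters. It was not particular to this list, since 35.7% of the 14 promoters of secreted factors and 9 of the 20 of MHC class I and peptide loading genes held it, and over all opposite genes its share was 6.45% up in lung and 5.95% down in lung. It is in capitals in the promoter of *Tnfaip3* (chr10:19015411-19015530, minus strand), which ends at the start site.
Tnfaip3: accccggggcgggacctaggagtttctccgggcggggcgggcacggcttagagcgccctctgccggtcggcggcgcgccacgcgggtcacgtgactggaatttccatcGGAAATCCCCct

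Cytokine signalling genes were called in both opposite classes, most often in the first. Of 31 cytokine receptor and JAK-STAT genes, 20 had a higher effect in lung and 3 a lower one. 13 (41.9%) rose in lung and fell in spleen and 1 did the opposite. The median interaction was 0.42, and 0.30 with the GC offset, which left 8 and 1 opposite genes. *Socs1*, the feedback inhibitor of JAK kinases, was at 5.22 and 7.25 CPM in WT lung against 25 and 27.2 in KO lung, with 32.0 and 27.8 in WT spleen against 6.2 and 8.35 in KO spleen. Lung KO was just below spleen WT, and spleen KO overlapped lung WT. The changes were 2.15 ± 0.17 (SE) in lung and -1.85 ± 0.13 in spleen, with an interaction of 4.01 (adjusted p = 2.00e-18) that was 3.30 with the GC offset. The IL-2 and IL-15 receptor chain *Il2rb* changed by 1.21 in lung and -0.61 in spleen, the STAT5 target kinase *Pim2* by 1.51 in lung and -0.57 in spleen, and the interferon receptor chain *Ifnar1* by 0.81 in lung and -0.73 in spleen. Among 14 secreted factors, 2 (14.3%, near the 14.2% of all genes) rose in lung and fell in spleen. Another 1 (7.14%, against 12.8%) did the opposite. Their median interaction was 0.11 (GC offset -0.16). The IL-6 family cytokine *Osm* was at 18.8 and 22.5 CPM in WT lung against 57.7 and 53.7 in KO lung, with 29.7 and 30.6 in WT spleen against 15.3 and 14.6 in KO spleen. The chemokine *Xcl1* went the other way, by -0.23 in lung and 0.42 in spleen. The adjusted p of each of these interactions in edgeR's test was 2.32e-17 or lower for *Socs1*, *Il2rb*, *Pim2* and *Ifnar1* and 2.81e-06 for *Xcl1*.

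Glycolytic genes and their hypoxia-response relatives had the highest median interaction after the AP-1 factors. Of 25 tested, 15 (60.0%) rose in lung and fell in spleen and 1 did the opposite. The medians were 0.35 in lung and -0.28 in spleen, and the median interaction was 1.10, or 0.80 with the GC offset, which left 9 and 3 opposite genes. *Pkm*, the pyruvate kinase of the last glycolytic step, was at 188 and 183 CPM in WT lung against 352 and 326 in KO lung, with 315 and 301 in WT spleen against 172 and 173 in KO spleen. The 2 libraries of each group stood close together and the KO groups on opposite sides of the WT groups. It changed by 0.86 ± 0.049 (SE) in lung and -0.83 ± 0.048 in spleen (adjusted p = 5.53e-22). *Hif1a*, the oxygen-regulated factor that drives this programme, changed by 1.10 in lung and -0.49 in spleen, and its interaction was 1.59 before and 1.82 after the GC offset. The glucose transporter *Slc2a3* (0.18 in lung and -0.94 in spleen) and the phosphofructokinase *Pfkl* (0.35 in lung and -1.15 in spleen) changed more in spleen than in lung.

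The glutamine transporter *Slc1a5* was at 76.2 and 74.1 CPM in WT lung against 198 and 179 in KO lung, with 139 and 138 in WT spleen against 53.5 and 52.4 in KO spleen. It changed by 1.31 ± 0.064 (SE) in lung and -1.40 ± 0.063 in spleen (adjusted p = 8.34e-25). *Slc3a2*, the shared heavy chain of several amino acid transporters, changed by 0.60 in lung and -0.43 in spleen. Of 32 ATF4 targets and tRNA synthetase genes, 13 (40.6%) rose in lung and fell in spleen and 3 did the opposite, with a median interaction of 0.52 that was 0.24 with the GC offset, which left 9 and 3 opposite genes. The alanyl and methionyl tRNA synthetases *Aars* and *Mars* changed by 0.86 in lung and -0.99 in spleen, and by 0.83 in lung and -0.71 in spleen. Lysosomal genes were more mixed, with 14 of 42 (33.3%) up in lung and down in spleen and 7 (16.7%) the opposite. These shares were 14.2% and 12.8% over all genes. The median interaction of the lysosomal list was 0.34 (GC offset 0.32 with 10 and 9 opposite). *Psap*, the precursor of the saposins, changed by 0.72 in lung and -0.66 in spleen, while the proton pump subunit *Atp6v0e* changed by -0.35 in lung and 0.38 in spleen.

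Genes induced by glucocorticoids rose in lung for 8 and fell in spleen for 9 members, against 3674 and 3645 of all 12595 genes tested. Of 14 tested, 9 had a higher effect in lung and 1 a lower one, and 6 (42.9%) rose in lung and fell in spleen. The median change was 0.46 in lung and -0.52 in spleen (median interaction 0.67, GC offset 0.56 with 4 and 1 opposite). *Fkbp5*, a chaperone of the glucocorticoid receptor and a standard target of it, was at 116 and 139 CPM in WT lung against 189 and 179 in KO lung, with 194 and 204 in WT spleen against 63.3 and 66.7 in KO spleen. The spleen KO libraries were the lowest and lung KO lay just below spleen WT. *Fkbp5* changed by 0.56 ± 0.063 (SE) in lung and -1.60 ± 0.062 in spleen (adjusted p = 7.34e-22). *Klf9*, a transcription factor, changed by 1.18 in lung and -0.99 in spleen. *Ddit4*, an mTOR inhibitor, changed by 0.36 in lung and -1.18 in spleen, but its lung change was -0.0051 with the GC offset. Of 17 circadian clock genes, 5 rose in lung and fell in spleen and none did the opposite (median interaction 0.65, GC offset 0.34 with 3 and 0 opposite). The clock repressor *Bhlhe40* changed by 0.55 in lung and -0.55 in spleen. The time of day at which the mice were taken is not given in the sources used here.

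Receptors that guide NK cell traffic had a higher effect in lung for 16 of 22 genes (72.7%, against 32.5% of all genes). The effect was lower in lung for 4 (18.2%, against 29.0%). 8 (36.4%) rose in lung and fell in spleen, and 2 did the opposite (median interaction 0.40, GC offset 0.23 with 7 and 0 opposite). *S1pr5*, the sphingosine-1-phosphate receptor that lets NK cells leave lymph node and marrow, was at 128 and 132 CPM in WT lung against 261 and 262 in KO lung, with 217 and 209 in WT spleen against 149 and 149 in KO spleen. It rose by 1.02 ± 0.052 (SE) in lung and changed by -0.51 ± 0.048 in spleen (adjusted p = 3.35e-20). *S1pr4* changed by 1.19 in lung and -0.92 in spleen and the fractalkine receptor *Cx3cr1* by 0.84 in lung and -0.35 in spleen. The G protein signalling regulator *Rgs18* went the other way, by -1.12 in lung and 0.43 in spleen. *Rgs18* is also known from platelets, whose markers *Ppbp* and *Pf4* fell in lung KO as well, and their part in its change was not tested. Integrin and adhesion genes were split, 6 against 5 of 22 (median interaction 0.16, GC offset 0.01 with 4 and 7 opposite). The integrin chain *Itgb2* changed by 0.41 in lung and -0.58 in spleen, the selectin ligand *Selplg* by 0.51 in lung and -0.50 in spleen, and the adhesion receptor *Cd2* in the opposite sense by -0.34 in lung and 0.47 in spleen.

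Lists with a median below 0 in lung and above 0 in spleen included those of the mitochondrion and the proteasome. Of 78 nuclear genes of oxidative phosphorylation, 58 had a lower effect in lung and 7 a higher one. 35 (44.9%, against 12.8% of all genes) fell in lung and rose in spleen and 3 did the opposite. The medians were -0.23 in lung and 0.25 in spleen. The median interaction of -0.46 was -0.61 with the GC offset, which gave 1 and 49 opposite genes. *Ndufb8*, a subunit of complex I, was at 292 and 275 CPM in WT lung against 173 and 186 in KO lung, with 200.1 and 195 in WT spleen against 302 and 277 in KO spleen. Lung WT and spleen KO were high and the other groups low, without overlap. It changed by -0.66 ± 0.052 (SE) in lung and 0.53 ± 0.050 in spleen (adjusted p = 7.64e-17). The complex I subunit *Ndufv2* changed by -0.57 in lung and 0.53 in spleen, and *Sdhb*, the iron-sulfur subunit of complex II, by -0.48 in lung and 0.47 in spleen. *Atp5o*, a stalk subunit of ATP synthase, changed by -0.69 in lung and 0.55 in spleen, and it shares exon sequence with *Donson* and with a gene on the other strand.

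Of the mRNAs of the mitochondrial genome itself, all 8 that were tested had a lower effect in lung, and 7 fell in lung and rose in spleen (87.5%). The medians were -0.62 and 0.36, and the median interaction of -1.05 was -0.52 with the GC offset, where only 2 of them fell in lung and rose in spleen. *mt-Cytb*, the cytochrome b of complex III, was at 8233 and 7701 CPM in WT lung against 4791 and 4683 in KO lung, with 3913 and 3926 in WT spleen against 5278 and 5121 in KO spleen, and lung WT stood above the 3 other groups. *mt-Co1*, of complex IV, changed by -0.47 in lung and 0.50 in spleen. Nuclear copies of mitochondrial sequence can share reads with these genes. Mitochondrial ribosomal proteins, which translate these mRNAs, fell in lung and rose in spleen for 33 of 76 genes (43.4%) and did the opposite for 3, with a median interaction of -0.47 that was -0.69 with the GC offset, which left 1 and 43 opposite genes. *Mrpl42* was at 258 and 234 CPM in WT lung against 137 and 132 in KO lung, with 173 and 163 in WT spleen against 253 and 232 in KO spleen. *Mrpl11* changed by -1.07 in lung and 0.47 in spleen and *Mrps14* by -0.65 in lung and 0.54 in spleen.

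Of 37 proteasome subunits, 20 (54.1%) fell in lung and rose in spleen and 2 did the opposite (median interaction -0.35, GC offset -0.50 with 2 and 23 opposite). *Psmb6*, a catalytic subunit of the core particle, was at 553 and 551 CPM in WT lung against 357 and 355 in KO lung, with 384 and 367 in WT spleen against 553 and 524 in KO spleen. Lung KO was close to spleen WT and spleen KO close to lung WT. It changed by -0.64 ± 0.042 (SE) in lung and 0.52 ± 0.041 in spleen (adjusted p = 4.60e-19). The core subunits *Psma2* and *Psmb1* changed by -0.50 in lung and 0.37 in spleen, and by -0.33 in lung and 0.41 in spleen. Cytosolic ribosomal protein genes rose in spleen for 60 of 83 genes, while 20 rose and 11 fell in lung. Of all 12595 genes tested, 3550 rose in spleen, while 3674 rose and 3326 fell in lung. In the ribosomal list, 11 (13.3%, near the 12.8% of all genes) fell in lung and rose in spleen, with 1 in the opposite class. The medians of the list were 0.02 in lung and 0.29 in spleen. With the GC offset the median interaction went from -0.18 to -0.47 and the number down in lung and up in spleen to 32 of 83, against 1790 of the 12595 genes tested, so that its nearness to the share of all genes did not hold there. These genes have many processed copies in the genome that can share reads.

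A promoter of this group is shown for the element of NRF1, a factor known to drive nuclear genes of mitochondrial proteins. Its letters CGCANGCGC were found on either strand in 26.5% of the 68 promoters matched to 63 oxidative phosphorylation genes, 20.5% of the 73 of mitochondrial ribosomal protein genes and 18.2% of the 33 of proteasome genes, against 5.19% of all promoters and 11.4% of those of genes tested. The element was not particular to these lists. It lay in 20.8% of the 24 promoters of ATF4 target and tRNA synthetase genes, which moved the other way. In 2 mixed lists it lay in 21.9% of the 105 promoters of splicing genes and 22.2% of the 18 of cohesin and looping genes. Over all opposite genes the shares were close, at 14.4% for those down in lung and up in spleen and 11.9% for the other class. *Ndufb10* (chr17:24724424-24724543, minus strand), a complex I subunit, holds it near the start site. It was chosen after its values were seen, and changed by -0.40 in lung and 0.48 in spleen.
Ndufb10: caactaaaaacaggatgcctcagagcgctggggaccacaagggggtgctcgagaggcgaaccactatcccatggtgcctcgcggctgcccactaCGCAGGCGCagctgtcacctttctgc

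Receptors of the Ly49 and NKG2 families are those by which NK cells read MHC class I and related ligands on their targets. Of 36 tested, 27 had a lower effect in lung and 4 a higher one, and 16 (44.4%) fell in lung and rose in spleen against 3 that did the opposite. The medians were -0.25 and 0.25. Removal of the GC trends took the median interaction from -0.51 to -0.15 and the number of genes down in lung and up in spleen from 16 to 11. *Klra7* (Ly49G) was at 1310.4 and 1243 CPM in WT lung against 1042 and 1062 in KO lung, with 1076 and 1093 in WT spleen against 1599 and 1601 in KO spleen. The spleen KO libraries stood above the other 6. *Klre1* changed by -0.31 in lung and 0.49 in spleen, *Klri2* by -0.37 in lung and 0.35 in spleen and *Klrb1a* by -0.33 in lung and 0.38 in spleen. The Ly49 genes are closely related in sequence, and how their shared reads were split cannot be seen in the counts. *Klrk1* (NKG2D) changed by -0.22 in lung and 0.29 in spleen, and its interaction of -0.51 turned to 0.40 with the GC offset, where it changed by 0.38 in lung and -0.023 in spleen. The RUNX motif AACCACA lay on either strand in 28.6% of the 35 promoters matched to 28 of these genes. It was in 4.40% of all promoters and 3.43% of those of genes tested. The motif was not particular to this list, since 23.8% of the 21 promoters of granule genes, 33.3% of the 6 of Schlafen genes and 14.3% of the 14 of secreted factors held it. Over all opposite genes its share was 3.03% up in lung and 3.97% down in lung. RUNX factors are known regulators of NK cell genes. *Klre1* (chr6:129577963-129578082, plus strand) holds the motif on the other strand, and it is shown in capitals.
Klre1: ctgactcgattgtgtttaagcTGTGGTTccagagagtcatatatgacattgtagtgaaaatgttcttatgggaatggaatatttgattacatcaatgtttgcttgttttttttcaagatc

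Genes of the killing machinery were called in both opposite classes, in shares not far from those of all genes. Of 20 cytotoxic granule genes, 4 (20%, against 14.2% of all genes) rose in lung and fell in spleen. Another 3 (15%, against 12.8%) did the opposite. The median interaction was -0.06 (GC offset -0.01 with 4 and 4 opposite). *Prf1*, which encodes the pore-forming perforin, was at 1463 and 1556 CPM in WT lung against 2477 and 2554 in KO lung, with 1303 and 1320.0 in WT spleen against 939 and 938 in KO spleen. *Nkg7*, a granule membrane protein, was at 13056 and 12811 CPM in WT lung against 8889 and 9285 in KO lung, with 9001 and 8674 in WT spleen against 12719 and 12165 in KO spleen. Both genotype differences were thus of opposite sign in these granule genes, and WT and KO did not overlap in either organ. *Prf1* changed by 0.74 ± 0.036 (SE) in lung and -0.48 ± 0.037 in spleen, and *Nkg7* by -0.51 ± 0.034 and 0.49 ± 0.034. Granzyme A (*Gzma*) changed as *Nkg7* did, by -0.46 in lung and 0.51 in spleen, and *Stxbp2*, needed for granule release, as *Prf1* did, by 0.57 in lung and -0.98 in spleen. The 4 interactions had an adjusted p of 1.96e-16 or lower in edgeR's test.

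The split of NK cell transcription factors was near that of all genes. Of 29 tested, 5 (17.2%, against 14.2% of all genes) rose in lung and fell in spleen and 3 (10.3%, against 12.8%) did the opposite. The median interaction was 0.09 (GC offset -0.08 with 2 and 6 opposite). *Tbx21* (T-bet) was highest in lung KO and lowest in spleen KO, with changes of 1.13 in lung and -1.18 in spleen, and *Irf8* changed by 0.37 in lung and -0.27 in spleen. The maturation factors *Zeb1* and *Prdm1* (Blimp-1) went the other way, by -0.56 in lung and 0.57 in spleen, and by -0.86 in lung and 0.55 in spleen. *Eomes*, the partner of T-bet, had an interaction of -0.12 that did not pass the test (adjusted p = 0.135). Among signalling proteins, the kinase *Zap70* changed by 0.62 in lung and -0.68 in spleen, whereas the adaptor *Sh2d1a* (SAP) changed by -0.21 in lung and 0.81 in spleen. With the GC offset the lung change of *Sh2d1a* turned to 0.10, so that it was no longer opposite.

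Antigen presentation genes were called in both opposite classes, and interferon genes were so in shares near those of all genes. Of 23 MHC class I and peptide loading genes, 7 (30.4%, against 14.2% of all genes) rose in lung and fell in spleen. Another 4 (17.4%, against 12.8%) did the opposite (median interaction -0.10, GC offset -0.14 with 3 and 8 opposite). The peptide transporter chain *Tap2* changed by 1.33 in lung and -1.41 in spleen and the loading factor *Tapbp* by 0.43 in lung and -0.66 in spleen, but the chaperone *Canx* by -0.65 in lung and 0.39 in spleen. The class I heavy chain *H2-D1*, whose reads can be shared with related genes, changed by 0.76 in lung and -0.67 in spleen. Of 53 interferon-stimulated genes, 8 moved in each opposite sense (15.1%, near the shares of all genes; median interaction -0.13, GC offset -0.06 with 5 and 6 opposite). *Irf7* changed by 1.04 in lung and -0.59 in spleen and *Gbp8* by -0.57 in lung and 0.49 in spleen.

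Survival genes of the BCL2 family were called opposite in shares near those of all genes. The anti-apoptotic genes *Bcl2l1* (BCL-XL) and *Mcl1* moved in opposite senses, *Bcl2l1* by 0.78 in lung and -0.90 in spleen and *Mcl1*, the protein on which NK cell survival depends, by -0.61 in lung and 0.35 in spleen. In the list, 3 of 16 (18.8%, against 14.2% of all genes) rose in lung and fell in spleen. Another 2 (12.5%, against 12.8%) did the opposite. The median interaction was 0.01 (GC offset -0.14 with 2 and 4 opposite). GIMAP GTPases, which support lymphocyte survival, fell in lung and rose in spleen for 4 of 8 (median interaction -0.22, GC offset -0.30 with 1 and 4 opposite). *Gimap7* changed by -0.53 in lung and 0.40 in spleen and *Gimap3* against it, by 0.36 in lung and -0.26 in spleen.

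Of 49 mitosis genes, 30 had a higher effect in lung (61.2%, against 32.5% of all genes). In lung 34 rose, while 18 rose and 11 fell in spleen. Of all 12595 genes tested, 3674 rose in lung, while 3550 rose and 3645 fell in spleen. The number that rose in lung and fell in spleen was 9 (18.4%, against 14.2% of all genes). The median was 0.88 in lung and 0.11 in spleen (median interaction 0.69, GC offset 0.78 with 10 and 2 opposite). *Racgap1*, needed for the division of the cytoplasm, changed by 0.55 in lung and -0.44 in spleen. Of 49 replication genes, 11 (22.4%, against 14.2% of all genes) rose in lung and fell in spleen. Another 5 (10.2%, against 12.8%) did the reverse. The median interaction was 0.29 (GC offset 0.15 with 11 and 5 opposite). *Mcm2* was at 17 and 20.5 CPM in WT lung against 40.5 and 43.8 in KO lung, with 36.7 and 38.0 in WT spleen against 21.5 and 20.1 in KO spleen. The helicase subunits *Mcm2* and *Mcm5* changed by 1.22 in lung and -0.88 in spleen, and by 0.70 in lung and -0.95 in spleen, and the licensing factor *Cdt1* by 1.38 in lung and -0.82 in spleen.

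Nuclear architecture and RNA processing lists held both directions. Of 16 cohesin, CTCF and looping genes, 4 moved in each opposite sense (median interaction 0.03, GC offset 0.17 with 5 and 4 opposite). The cohesin release factor *Wapl*, the loader *Nipbl* and the ring subunit *Smc3* all fell in lung and rose in spleen, by -0.62 in lung and 0.38 in spleen for *Wapl*, -0.47 in lung and 0.32 in spleen for *Nipbl* and -0.44 in lung and 0.40 in spleen for *Smc3*. Of 101 splicing genes, 27 (26.7%) fell in lung and rose in spleen and 17 did the opposite (median interaction -0.18, GC offset -0.05 with 16 and 19 opposite). The splicing factor *Luc7l3* changed by -0.59 in lung and 0.55 in spleen and *Rsrp1* against it, by 1.10 in lung and -0.42 in spleen. Actin cytoskeleton genes divided 15 against 12 of 52 (median interaction 0.18, GC offset -0.07 with 11 and 13 opposite).

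**Figure D4:**
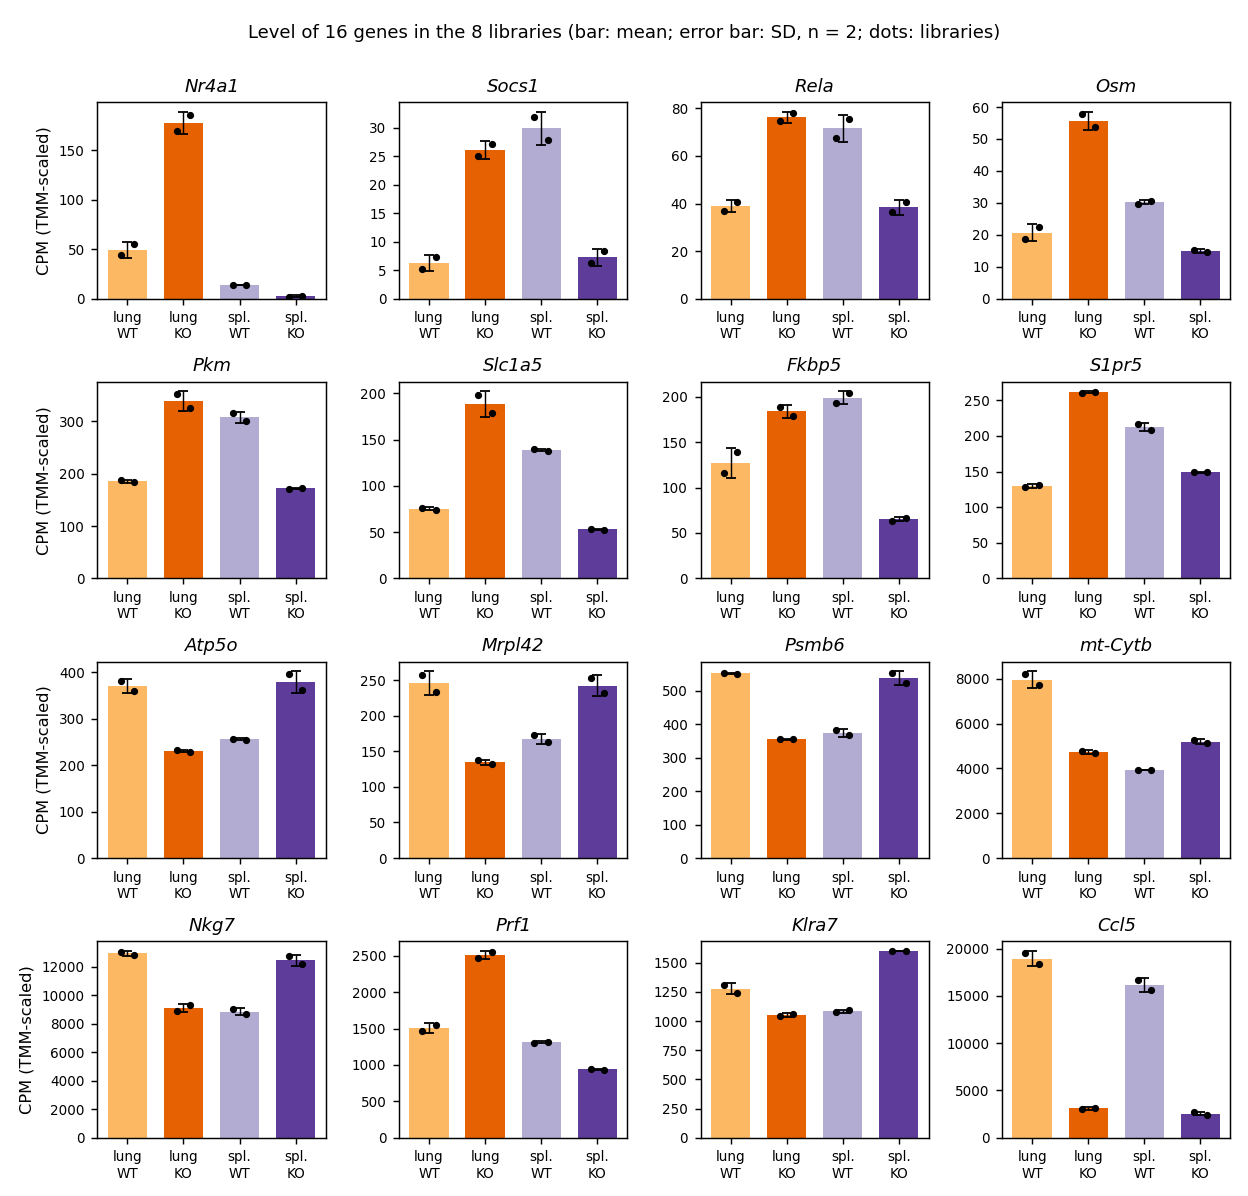
Bars give the mean level of 16 genes in each group in TMM-scaled CPM, error bars the SD (n = 2 libraries) and dots the libraries. *Nr4a1*, *Socs1*, *Rela*, *Osm*, *Pkm*, *Slc1a5*, *Fkbp5*, *S1pr5* and *Prf1* are higher in lung KO than in lung WT and lower in spleen KO than in spleen WT, *Atp5o*, *Mrpl42*, *Psmb6*, *mt-Cytb*, *Nkg7* and *Klra7* are the reverse, and *Ccl5* is lower in KO in both organs.

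Beyond the lists, the genes with the widest opposite changes at an average log2 CPM of at least 5, predicted genes left out, included *Vps37b*, *Tmem109* and *Adora2a* among those up in lung and down in spleen. *Adora2a*, an adenosine receptor that restrains lymphocytes, was at 73.2 and 78.8 CPM in WT lung against 136 and 148 in KO lung, with 108 and 103 in WT spleen against 39.8 and 39.5 in KO spleen. *Vps37b*, a subunit of the endosomal sorting complex ESCRT-I, changed by 1.83 in lung and -0.74 in spleen and *Tmem109* by 1.27 in lung and -1.09 in spleen. The other class was led by *Rgs18* and *Mrpl11*. Among the next genes, *Esf1*, needed for ribosome assembly, was at 152 and 144 CPM in WT lung against 86.4 and 86.0 in KO lung, with 66.9 and 76.4 in WT spleen against 119 and 108 in KO spleen. *Xrcc4*, a DNA ligation factor, changed by -0.34 in lung and 1.04 in spleen, and the methyl-CpG binding protein *Mbd2* by -0.71 in lung and 0.66 in spleen. Widths differed between the classes, less so with the GC offset. Genes at least 1.5-fold in both organs numbered 680 up in lung and 240 down in lung without the offset. With it they numbered 404 and 320. The values that follow are without the offset. The 10 widest interactions of genes at this level lay between -1.55 and -1.37 among genes down in lung and between 2.31 and 3.81 among genes up in lung.

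**Figure D5:**
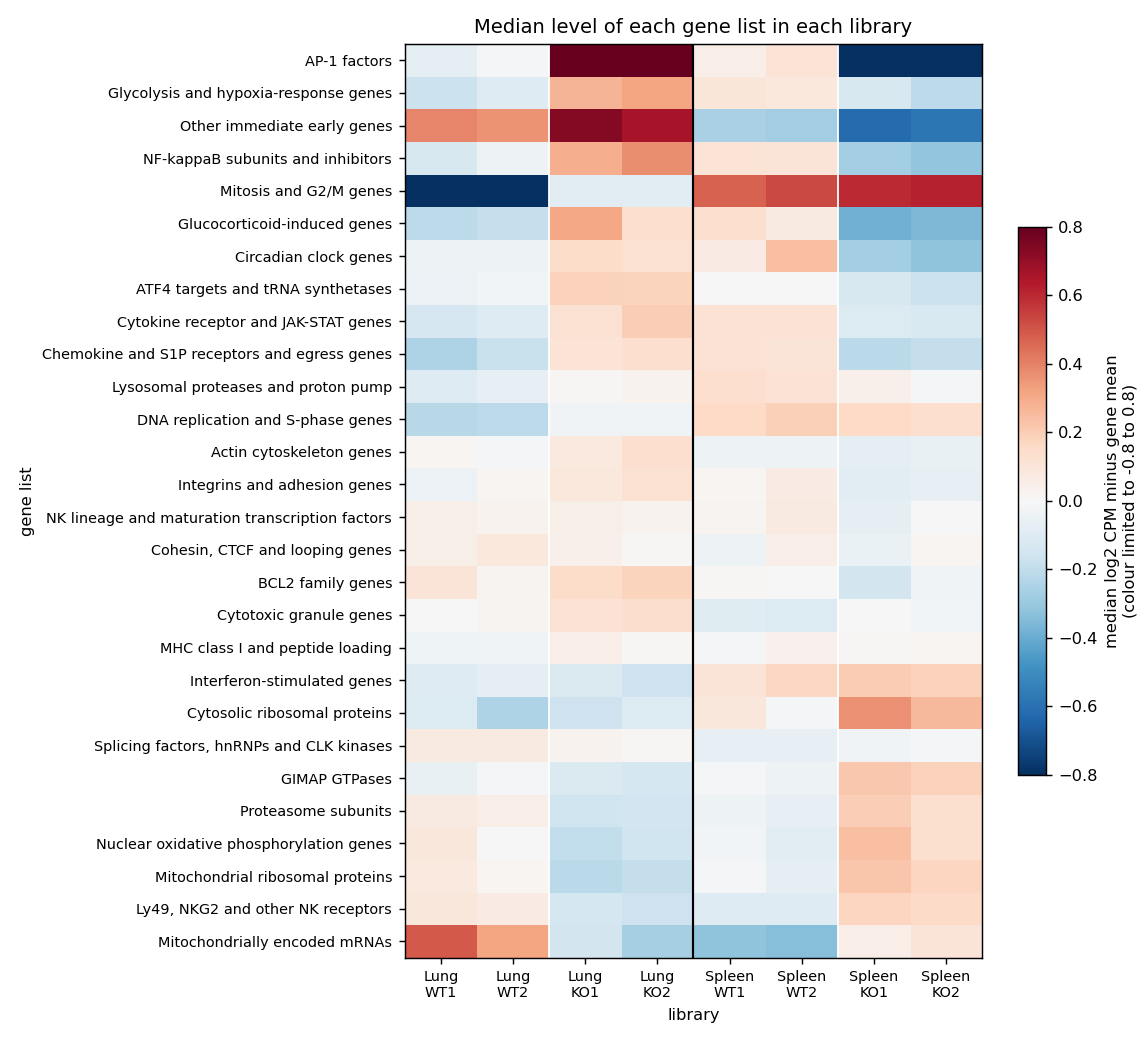
Colour gives the median, over the genes of a list, of log2 CPM minus the gene's mean over the 8 libraries, for each list (rows) and library (columns). Most lists near the top are high in lung KO and low in spleen KO, most near the bottom are low in lung KO and high in spleen KO, and mitosis genes are instead lowest in lung WT.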

How the data were processed

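RNA-seq of sorted NK cells was analysed in 8 libraries, 2 for each of WT and Ccl5 ΔPE/ΔPE in lung and in spleen. The authors deposited raw read counts per gene symbol, made per the labels with HISAT2 2.1.0 on mm10 and HTSeq 0.11.1, and the strand setting is not given in the sources used here. Rows that name no gene were removed, and reads on no feature were 52.7% to 55.0% of the reads on genes, on no feature and ambiguous. A count of 3 reads was 0.115 to 0.979 CPM.

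Genes were kept by filterByExpr, and 12595 remained. Counts were scaled by TMM and fitted with the quasi-likelihood method of edgeR 4.0.16 (limma 3.58.1, R 4.3.3) to the 4 groups together, without covariates. The changes in each organ and the interaction were tested 2-sided at an adjusted p of 0.05 (Benjamini-Hochberg over all genes tested), and a gene was called opposite when it passed all 3 tests with changes of opposite sign. The script was tested on simulated data. Tables, promoters and figures were made with Python 3.11.15, pandas 2.3.3 and SciPy 1.17.1. For GC content, per-library spline trends (5 degrees of freedom) entered as offsets.

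The lists and genes were chosen with earlier results of these data known, so they are described by counts and medians without a test of the list. Named genes were up to 4 opposite members of each list with the smallest interaction p (or 2 with the smallest p where none was opposite), the 10 widest opposite genes in each direction at an average log2 CPM of at least 5 with KO libraries outside the WT libraries in both organs, *Ccl5*, and the defining NK cell markers. Alternatives were DESeq2 1.42.0, the likelihood ratio test, other scalings, other filters, a replicate block, a GC offset, thinned libraries, larger assumed spread, stricter thresholds and leaving out each library. The comparison of the organs within each genotype and the distances between groups were added after the data were seen.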

Additional observations from a re-analysis of the deposited data

Results flagged for a closer look

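The genotype effect differed between lung and spleen, by the test of the interaction, for 7753 genes, of which 1790 rose in lung and fell in spleen and 1612 did the opposite. Among genes up in lung and down in spleen, the widest interactions at an average log2 CPM of at least 5 were those of *Junb* (3.81), *Jund* (3.67), *Dusp1* (3.15), *Tap2* (2.74), *Slc1a5* (2.71), *Klf2* (2.57), *Vps37b* (2.56), *Tmem109* (2.36), *Adora2a* (2.33) and *Tbx21* (2.31), on the log2 scale. Among genes down in lung and up in spleen they were those of *Rgs18* (-1.55), *Mrpl11* (-1.54), *Cebpzos* (-1.51), *Arl3* (-1.47), *Mrpl42* (-1.40), *Xrcc4* (-1.38), *Esf1* (-1.38), *Mbd2* (-1.38), *Znhit3* (-1.37) and *Aptx* (-1.37). With 2 libraries in each group, single libraries that stand apart could not be tested.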

How the results depend on the processing

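The 7753 genes with an interaction, and the 1790 and 1612 opposite genes, became 5106, 960 and 801 at an adjusted p of 0.001, 3730, 531 and 489 with all libraries thinned to the shallowest, 3507, 233 and 42 in a test against a 1.5-fold change, and 2017, 203 and 46 when the biological coefficient of variation was set to 0.2. With a coefficient of 0.1 the opposite genes numbered 943 and 511, and with DESeq2 949 and 932. Library totals alone gave 2320 and 1109. Leaving out each library in turn gave 6352 to 7946 genes with an interaction, 1240 to 1795 up in lung and down in spleen and 1176 to 1583 the opposite, with the lowest counts without spleen KO replicate 2, the deepest library. Genes higher in lung made 52.9% of the interaction calls, 45.9% with the GC offset and 63.5% with library totals. Of 168 named genes, 75 no longer passed with a coefficient of 0.2, 20 in the test against 1.5-fold, 6 of 167 after thinning and 2 with DESeq2, in the same direction.

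Some values changed sign. The median interaction of the granule genes was 0.10 with library totals and -0.068 to 0.024 with libraries left out in turn, that of the MHC class I genes was 0.062 with library totals, and with the GC offset the medians of the NK transcription factors and the actin genes were -0.084 and -0.073. With that offset the interaction was -0.30 for *Ccl5*, 0.40 for *Klrk1* and -0.18 for *Ltb* (-0.17 for *Ltb* with the block as well). It was 0.040 for *Eomes* with library totals. It was -0.040 for *Cd247* after thinning. Without 1 library it lay between -0.023 and 0.12 for *Ccl5* and between -0.037 and 0.083 for *Cd247*. The cause was not tested.

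With the replicate number as a block, 7764 genes had an interaction, 1762 were up in lung and down in spleen and 1604 the opposite, and no call of a named gene changed. Deviations of same-numbered libraries correlated at 0.17 in spleen and -0.01 in lung, so the numbers are not taken as pairs. With 4 residual degrees of freedom and libraries that may be technical replicates, the tests do not measure the spread between mice. The deposited labels give no batch, so one that crosses organ and genotype cannot be told apart from the interaction. Low genes are limited by the shallowest libraries.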
